A study of Mus musculus with 7 samples.

Results

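The immunoglobulin heavy chain variable genes (Ighv) on mouse chromosome 12 and the kappa variable genes (Igkv) on chromosome 6 were examined for binding of CTCF and of Rad21, a subunit of cohesin, in the liver of female mice. Members were all genes of the mm9 annotation whose symbol starts with Ighv or Igkv, which gave 37 Ighv and 100 Igkv genes among 37310 annotated genes. Around each locus, the span from the first to the last such gene was extended by 100 kb on each side, and all peaks touching it were taken. The Ighv span was chr12:114791502-117338672 (2.55 Mb, from Ighv2-4 to Ighv1-85) and the Igkv span was chr6:67405630-70754171 (3.35 Mb, from Igkv2-137 to Igkv3-1). In the Ighv span lay 23 of the 68667 CTCF peaks and 11 of the 68656 Rad21 peaks. The Igkv span held 16 CTCF peaks and 10 Rad21 peaks.

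ChIP-seq libraries were made from untreated liver of 8-week-old females of the outbred CD-1 strain, 4 with an antibody to CTCF and 3 with an antibody to Rad21. For each antibody there was 1 list of peaks, called on the reads of all its libraries together, so the spread between mice could not be computed and no difference below was tested. Each peak has a fold enrichment, the height of its summit over the local background, and a −log10 q value from the peak caller. The lists hold no read counts, so they do not give the number of reads behind each value. A region without a listed peak can still be bound below the threshold of the caller. The reference sequence of mm9 is that of C57BL/6J, and the immunoglobulin haplotypes of the CD-1 mice were not analysed here.

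Variable (V) genes are the segments that developing B cells join to D and J segments, or to J segments alone in the kappa locus, to build the antigen-binding part of an antibody. The joining enzyme, made of the Rag1 and Rag2 proteins, cuts at a recombination signal that follows each V gene and consists of a heptamer, a spacer and a nonamer. Cohesin is known to extrude DNA loops that are held at CTCF sites in an orientation-dependent way, and in pro-B cells CTCF and cohesin bind many sites of these loci. Hepatocytes, the main cells of the liver, do not rearrange them. Following the usual terms, CTCF peaks that overlap a Rad21 peak by at least 1 bp are called CAC sites, other CTCF peaks Lone CTCF sites, and Rad21 peaks without CTCF are CNC sites.

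The mm9 annotation gives many heavy chain V segments a provisional symbol (Gm followed by digits), so the symbol rule misses them. With RefSeq synonyms (GRCm38 table, used for names only), 116 Ighv genes and 103 Igkv genes were found. The wider Ighv set begins at Ighv2-1 and its span, from position 114712453, held 25 CTCF and 13 Rad21 peaks. Names such as Ighv5-17 below come from these synonyms. Unless the wider set is named, values of a span are those of the span drawn by mm9 symbols, and the main ones are also given for the wider set. Of the 116 Ighv genes 114 lie on the minus strand, reading towards the D, J and constant genes, which lie at lower coordinates. In the kappa locus the J and constant genes lie at higher coordinates, and 40 of 103 V genes lie on the plus strand and 63 on the minus strand.

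A group of heavy chain V genes had a CTCF site just behind the recombination signal. The sequences below run from the first base of the heptamer to the last base of the CTCF motif, on the minus strand of chromosome 12 in mm9. They are the 8 with the strongest CTCF peaks among the V genes with a peak within 1 kb, a called motif and a called recombination signal. Ighv7-1 tied with Ighv4-1 for the last place (fold enrichment 6.73 each) and is not printed. Ighv7-2, with a stronger peak than some of those shown, had no called signal and is not printed. Capitals mark, in order, the heptamer, the nonamer and the 20-bp CTCF motif match.

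The sequences of the 8 genes were as follows.
Ighv5-17 (chr12:115097285-115097359): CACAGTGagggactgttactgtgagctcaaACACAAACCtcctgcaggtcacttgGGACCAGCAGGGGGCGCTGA
Ighv12-3 (chr12:115604654-115604730): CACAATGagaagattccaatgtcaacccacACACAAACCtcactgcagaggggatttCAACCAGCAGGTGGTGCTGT
Ighv2-9 (chr12:115117230-115117306): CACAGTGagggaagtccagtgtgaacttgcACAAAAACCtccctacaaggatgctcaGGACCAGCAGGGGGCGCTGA
Ighv11-1 (chr12:115220013-115220089): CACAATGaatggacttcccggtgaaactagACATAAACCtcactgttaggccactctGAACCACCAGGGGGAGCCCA
Ighv5-2 (chr12:114816640-114816714): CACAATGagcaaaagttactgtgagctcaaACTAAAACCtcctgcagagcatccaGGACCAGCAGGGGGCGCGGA
Ighv11-2 (chr12:115286375-115286451): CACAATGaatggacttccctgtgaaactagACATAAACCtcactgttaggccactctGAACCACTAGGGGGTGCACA
Ighv2-3 (chr12:114849318-114849394): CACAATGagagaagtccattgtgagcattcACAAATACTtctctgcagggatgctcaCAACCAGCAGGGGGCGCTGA
Ighv4-1 (chr12:115186416-115186492): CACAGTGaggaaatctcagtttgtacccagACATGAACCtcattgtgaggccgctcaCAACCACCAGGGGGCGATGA

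In each of these 8 the spacer between heptamer and nonamer was 23 bp, and the motif followed on the same strand. Over all Ighv genes with a called signal the spacer was 23 bp in 44, 22 bp in 55 and 24 bp in 2. Motif matches were called with a 20-bp weight matrix learned from the 1000 strongest CTCF peaks of odd-numbered autosomes, with the consensus NNGCCACNAGGGGGCGCNNN, at a score of at least 13.2 bits, which 1% of flanking windows reached. The motif scored 20.8 bits at Ighv5-17, Ighv2-9 and Ighv2-3, and 13.8 bits at Ighv11-2. A letter match describes the sequence and does not by itself show a bound site.

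CTCF peaks lay on the 3′ ends of 13 heavy chain V genes and on no kappa V gene. The strongest was at Ighv5-17 (chr12:115097086-115097501), with a fold enrichment of 15.7. Ighv12-3 had a peak of fold enrichment 13.1 and Ighv2-9 one of 12. Ighv11-1 (11.3), Ighv7-2 (11.1) and Ighv5-2 (10.7) followed. Ighv2-3 and Ighv11-2 each had 8.8, and Ighv4-1 and Ighv7-1 each had 6.73. Ighv5-15 had 6.6, Ighv2-6-8 had 5.09 and Ighv5-16 had 3.02. All but the last 2 were above the median of autosomal CTCF peaks, 6.03. Ighv7-1 is named as a pseudogene by RefSeq and the other 12 as V segments. The summits of 12 of these 13 peaks lay 11 to 122 bp after the annotated 3′ end, where the recombination signal and the motif are, and that of Ighv5-16 lay 52 bp before it. Median fold enrichment of the 13 was 8.8, with widths of 200 to 698 bp.

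A 14th gene, Ighv1-67, had its CTCF peak 761 bp away on its 5′ side (chr12:116843205-116843502, fold enrichment 5.77), with a motif of 18.7 bits. By the wider gene set, 14 of 116 Ighv genes therefore had a CTCF peak within 1 kb (12.1%, 95% Wilson interval 7.33 to 19.2%, counting error only). By the mm9 symbols, they were 3 of 37 (8.11%, 2.8 to 21.3%), namely Ighv11-2, Ighv12-3 and Ighv1-67. Of all autosomal genes 50.7% had a CTCF peak within 1 kb, but most are far longer than a V gene, whose median length here was 435 bp. Of the 10245 autosomal genes of at most 1000 bp the share was 10.6%, close to both Ighv values. The number of V genes with a peak was thus near the background for short genes, and the summits described above give where on the gene it lay. In the Igkv set 0 of 100 genes had a CTCF peak within 1 kb, which allows a share of up to 3%, and 1 of 100 had one within 5 kb (Igkv8-28, at 3016 bp). In the wider Ighv set 17 of 116 genes (14.7%) had a CTCF peak within 5 kb, and by the mm9 symbols 5 of 37 (13.5%). Of all autosomal genes 61.1% had one within that distance, and of those of at most 1000 bp 28.4%.

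Distances to the nearest V gene differed between the loci. Among the 23 CTCF peaks of the Ighv span, 13 overlapped a V gene of the wider set and 4 were more than 20 kb from one, so the median gap was 0 bp. By the mm9 symbols alone the median gap was 49230 bp, since 11 of the bound genes carry provisional names. The 16 CTCF peaks of the Igkv span lay 3016 to 93628 bp from the nearest Igkv gene, with a median of 21213 bp under either gene set. Rad21 peaks had medians of 66293 bp (mm9 symbols) and 11 bp (wider set) in the Ighv span, and of 46406 bp in the Igkv span.

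**Figure D1:**
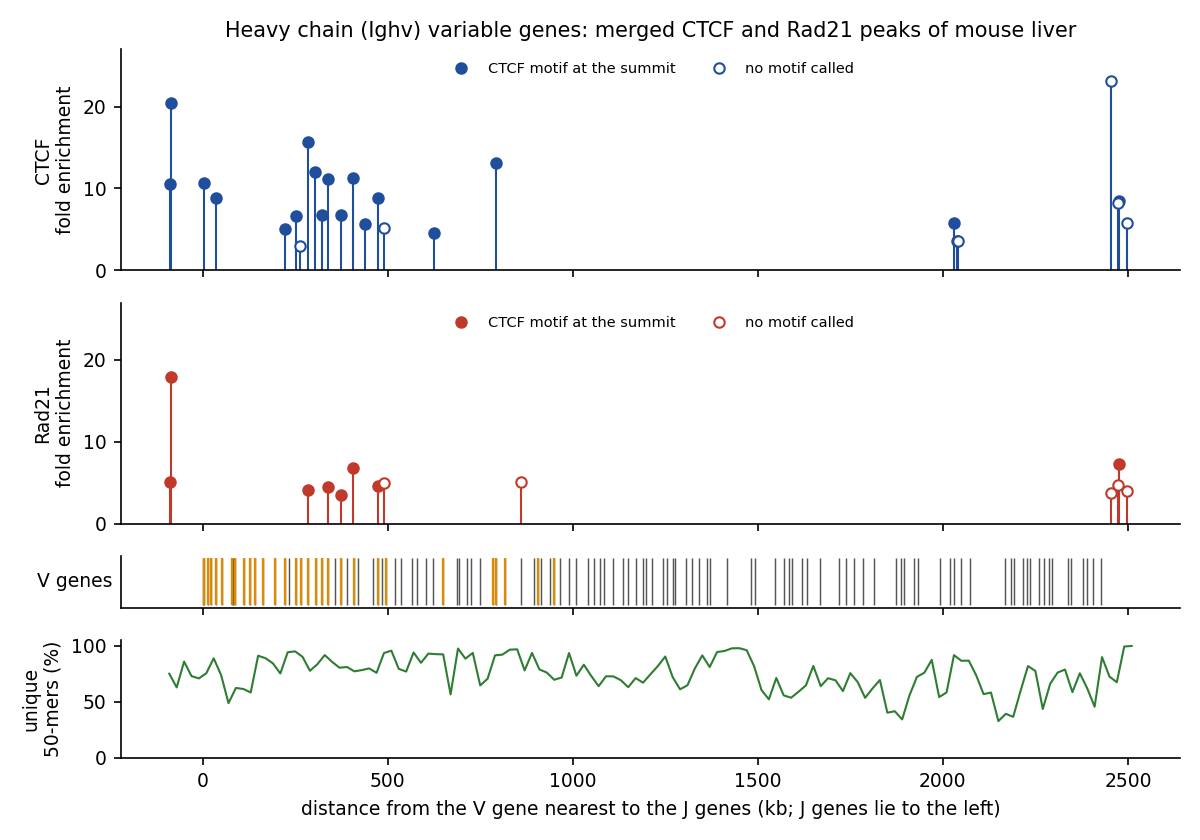
CTCF and Rad21 peaks along the heavy chain V genes, by distance in kb from Ighv2-1, the V gene nearest to the J genes, with fold enrichment on the vertical axes, filled circles where a CTCF motif was called at the summit and open circles where not. Vertical ticks are V genes (orange with a motif after the 3′ end, gray without), and the lowest panel gives the percent of 50-mers that occur once in mm9, in windows of 20 kb. Most CTCF peaks lay among the orange V genes on the J-proximal side, then came a stretch of 1.24 Mb with none.

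The motif behind the 3′ end went with gene families. A called motif within 200 bp after the 3′ end was found at 29 of 116 Ighv genes (25%), against 1.36% of autosomal genes, and at 0 of 103 Igkv genes. All 29 motifs lay on the strand of their gene, pointing towards the D and J genes. In the Ighv5 family 9 of 10 genes had it and in Ighv2 8 of 10, as had 3 of 4 Ighv7 genes, both Ighv10 genes, both Ighv11 genes and the single Ighv4, Ighv12 and Ighv16 genes. So had 1 of 2 Ighv6 genes and 1 of 2 Ighv13 genes. None of the 58 Ighv1 genes, the largest family, had one, nor did any of the Ighv3, Ighv8, Ighv9, Ighv14 and Ighv15 genes. The distance from the first base of the heptamer to the motif centre was measured in 28 genes with a called signal. It was 65 bp in 8 of them and 67 bp in 16, with extremes of 62 bp at Ighv5-9-1 and 82 bp at Ighv16-1. Ighv7-2 had no called signal.

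**Figure D2:**
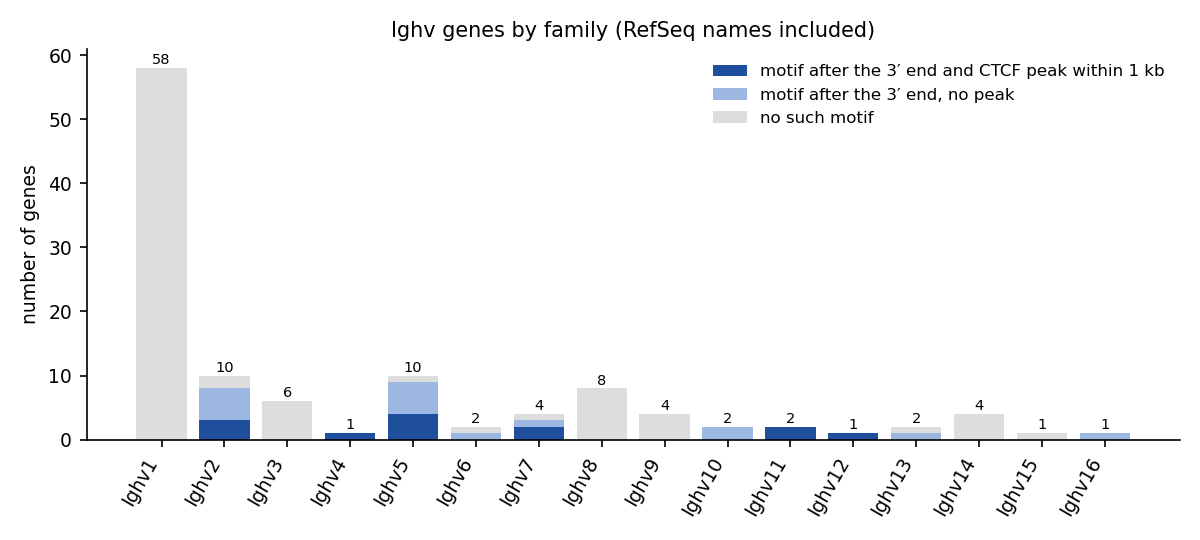
Number of Ighv genes per family (horizontal axis), with RefSeq synonyms included and the family total above each bar, split by whether a CTCF motif lies within 200 bp after the 3′ end and whether a CTCF peak lies within 1 kb. Most motifs were in Ighv2 and Ighv5, and none in Ighv1, Ighv3, Ighv8, Ighv9, Ighv14 and Ighv15. Of the 58 Ighv1 genes, Ighv1-67 has a peak on its 5′ side.

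Of the 29 genes with the motif, 13 had a CTCF peak over it (44.8%), near the 38.1% of autosomal genes with such a motif that had a peak over the same 200 bp. The score did not separate them. Genes with a peak had motifs of 13.8 to 20.8 bits (median 18.5) and genes without one had 14.6 to 20.8 bits (median 16.8). Identical motif letters were found with and without a peak. Ighv2-3, Ighv2-6-8 and Ighv2-6 share CAACCAGCAGGGGGCGCTGA, with peaks at Ighv2-3 and Ighv2-6-8 and none at Ighv2-6. Ighv7-2 and Ighv7-4 share GGACCAACAGGGGGCGCACA, with a peak at Ighv7-2 alone. The motif GGACCAGCAGGGGGCGCTGA of Ighv5-17 and Ighv2-9 lay under peaks in both, whereas GGACCAGCAGGGGGCGCAGA, found at Ighv5-6, Ighv5-12 and Ighv5-9-1, lay under none. A CpG was present in 10 of 13 motifs with a peak and in 7 of 16 without, a count made after the peaks were seen, and its part in the result was not tested.

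V genes are near copies of each other, and the authors kept only reads that map to a single place. In the 400 bp around the motif, the share of 50-mers that occur once in mm9 had a median of 94.8% at the 13 genes with a peak (74.5 to 100%) and 94.3% at the 16 without (49 to 100%). Lowest were Ighv5-6 (49%) and Ighv5-12 (53.0%), both without a peak. Ighv2-9-1, Ighv16-1, Ighv7-4 and Ighv13-2 had 100% and no peak either. Over the span of the wider Ighv set 74.5% of 50-mers were unique, 72.8% over the Igkv span and 89.5% over windows spread across the autosomes. The length of 50 is an assumption, as the read length was not given in the sources used here.

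**Figure D3:**
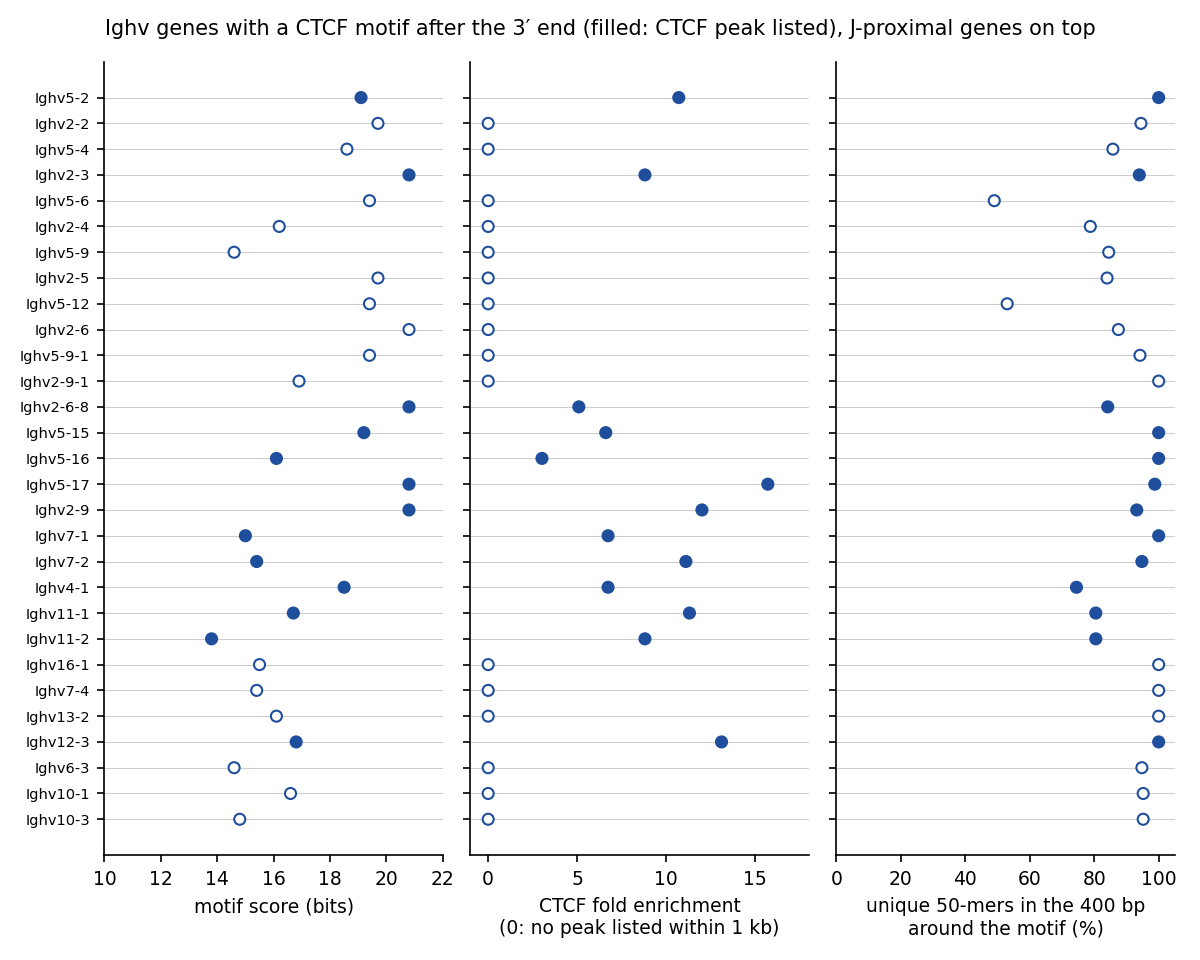
The 29 Ighv genes with a CTCF motif after the 3′ end, in order along the chromosome with J-proximal genes on top, with the motif score in bits (left), the fold enrichment of the CTCF peak within 1 kb (middle, 0 where none is listed) and the percent of unique 50-mers in the 400 bp around the motif (right). Filled circles are the 13 genes with a peak, which spread over the same ranges of score and uniqueness as most of the 16 open ones.

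CTCF peaks were few among the Ighv1 genes. Dividing the V genes behind Ighv12-3, the last gene with a peak before the longest gap, 13 of the 45 genes on the J-proximal side had a CTCF peak within 1 kb and 26 had the motif. Among autosomal genes of at most 1000 bp, as above, 10.6% had such a peak. The border was chosen after the peaks were seen, so the contrast between the sides follows in part from that choice. Of the 71 genes beyond it, 58 of them Ighv1, 1 had a CTCF peak and 3 had the motif. Median uniqueness around the genes was 92.1% on the near side and 79.1% on the far side. The longest stretch without a CTCF peak, chr12:115604883-116843204, ran for 1.24 Mb over 53 V genes, 43 of them of the Ighv1 family, and only 117 of 66991 intervals between neighboring autosomal CTCF peaks were longer. It was not free of motif letters, since 73 matches lay in it (59.0 per Mb, against 49 per Mb in autosomal windows). Of its 50-mers 72.7% were unique, and the part of this in the gap was not tested.

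A pair of motif positions recurred upstream of Ighv1 genes, both noticed after the matches were listed. At 1231 to 1266 bp before the 3′ end there were 8 matches, and 1 of them, at Ighv1-67, lay in a CTCF peak. The other 7 scored higher, 20.2 bits each against 18.7 bits. They had 17.0 to 88.2% unique 50-mers around them, against 100% at Ighv1-67, and the part of uniqueness in the missing peaks was not tested. A second group of 9 matches lay 2643 to 2685 bp before the 3′ end, with 14.6 to 17.7 bits, and 0 of them were in a peak. Uniqueness around these was 54.8 to 100%.

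Overlap with a Rad21 peak made CAC sites of 5 of the 13 peaks on V gene ends (38.5%), those at Ighv5-17, Ighv7-2, Ighv4-1, Ighv11-1 and Ighv11-2. Their Rad21 fold enrichments were 4.15, 4.48, 3.48, 6.8 and 4.64, against an autosomal median of 4.91, so 1 of the 5 was above it. At Ighv12-3, Ighv2-9, Ighv5-2, Ighv2-3 and Ighv7-1, the strongest Lone CTCF sites of the span (fold enrichments 13.1, 12, 10.7, 8.8 and 6.73), no Rad21 peak was listed. Autosomal CTCF peaks within the same range of fold enrichment, 3.02 to 15.7, overlapped a Rad21 peak in 70.1% of cases.

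In the whole Ighv span 10 of 23 CTCF peaks were CAC sites (43.5%, 25.6 to 63.2%), against 73.8% of autosomal CTCF peaks. In the span of the wider set they were 12 of 25 (48.0%, 30.0 to 66.5%). V gene spans of other antigen receptors, built by the same rule, differed in this share. It was 4 of 12 (33.3%) for T-cell receptor alpha, 11 of 16 (68.8%) for beta and 1 of 2 for lambda. With only CTCF and Rad21 peaks of fold enrichment 5 or more, the share was 10.5% in the Ighv span and 70.3% on the autosomes. All 10 CAC sites of the Ighv span had a CTCF value above this limit, the lowest 5.22. Of the 11 Rad21 peaks 3 remained, so the share fell through the limit on Rad21. Read from the Rad21 side, 10 of 11 peaks (90.9%, 62.3 to 98.4%) overlapped a CTCF peak, against 73.4% of autosomal Rad21 peaks, and in the span of the wider set 12 of 13 did (92.3%). The exception was a CNC site at Ighv6-6 (chr12:115672770-115672988, fold enrichment 5.14), 11 bp from the gene. Its best motif match lay at the usual place, 68 bp after the 3′ end, but scored 10 bits, below the threshold. A Rad21 peak lay within 1 kb of 6 of 116 Ighv genes (5.17%), 1 of 37 by the mm9 symbols, and 0 of 100 Igkv genes, against 49.1% of autosomal genes and 9.14% of those of at most 1000 bp.

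Counts per megabase were low in both spans. CTCF peaks came to 9.03 per Mb in the Ighv span and 4.78 per Mb in the Igkv span, and the autosomal value was 27.1. For Rad21 the values were 4.32, 2.99 and 27.2 per Mb. The span of the wider Ighv set had 9.52 CTCF and 4.95 Rad21 peaks per Mb. Among 938 autosomal windows as long as the Ighv span, 168 had fewer CTCF peaks and 99 fewer Rad21 peaks, and the median window had 60 and 63. As for the Igkv span, 67 of 712 windows had fewer CTCF peaks and 51 fewer Rad21 peaks (medians of 81 and 84). V gene spans of other antigen receptors, built by the same rule, had 7.48 (Trav, T-cell receptor alpha), 18.5 (Trbv, beta) and 5.32 (Iglv, lambda) CTCF peaks per Mb, with 48.5, 83.6 and 76.8% unique 50-mers.

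**Figure D4:**
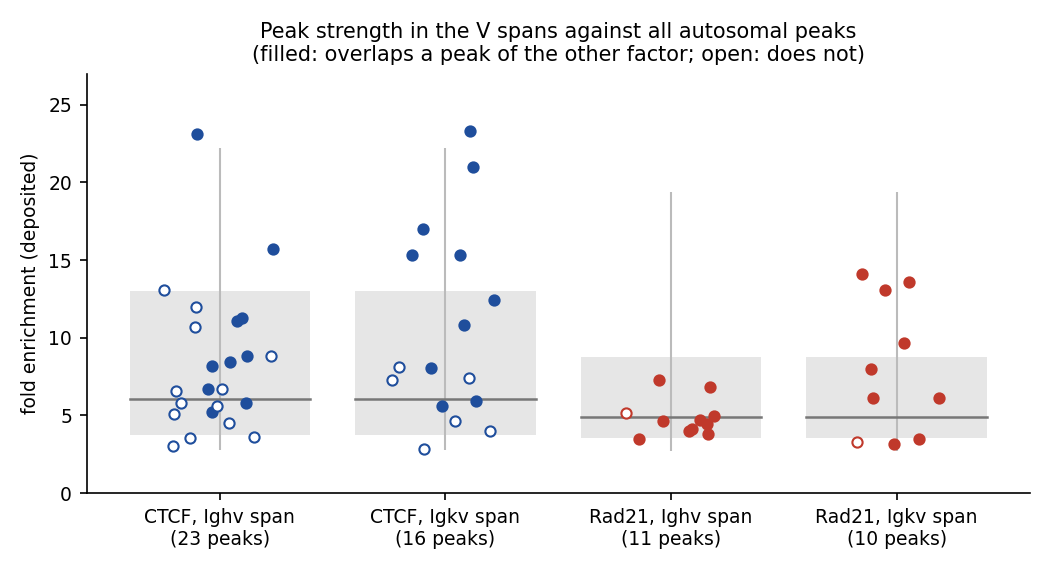
Fold enrichment (vertical axis) of each CTCF peak (blue) and Rad21 peak (red) of the 2 spans, filled where it overlaps a peak of the other factor, with sideways scatter for legibility only. Gray boxes run from the 25th to the 75th percentile of all autosomal peaks of that factor, the thick line is their median and the thin line runs from the 5th to the 95th percentile. Rad21 peaks of the Ighv span all lay below 8, and 4 of those in the Igkv span above 9.

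Peak strength had a higher median in the Igkv span than on the autosomes for both factors, and in the Ighv span for CTCF alone. Median CTCF fold enrichment was 6.73 in the Ighv span (3.02 to 23.1) and 8.07 in the Igkv span (2.86 to 23.3), against 6.03 on the autosomes. Rad21 medians were 4.64 and 7.05, against 4.91. In the span of the wider Ighv set the medians were 8.17 for CTCF and 4.71 for Rad21, whose strongest peak there reached 17.9 instead of 7.3, and 18 of 25 CTCF peaks (72.0%) had the motif described next. A CTCF motif was called within 100 bp of the summit in 16 of 23 Ighv peaks (69.6%, 49.1 to 84.4%) and in 12 of 16 Igkv peaks (75%), against 45.2% of autosomal CTCF peaks. Within 50 bp of the summit the Ighv share was 39.1%, against 40% of autosomal CTCF peaks. Of the 16 motifs in the Ighv span, 15 pointed towards the J genes. The kappa motifs were mixed, with 5 of 12 on the plus strand, which runs from the V genes to the J genes. The kappa J and constant genes lie inside the extension of the span. A minus-strand motif beyond them points back towards the J genes and is counted among the others. All motif matches of the sequence showed the same contrast, bound or not. In the Ighv span 146 of 154 lay on the minus strand, towards the J genes, and in the Igkv span 36 of 91 lay on the plus strand. Among the matches under a CTCF peak the counts on these strands were 16 of 17 and 5 of 12.

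Within the V genes of the kappa locus there were 5 CTCF peaks, and each stood apart from the genes. A single CAC site was among them, chr6:68618386-68618762, 11794 bp from Igkv10-95, with fold enrichments of 15.3 (CTCF) and 7.96 (Rad21) and a motif of 16.9 bits pointing towards the J genes. The other 4 were Lone CTCF sites. They were nearest to Igkv14-130 (fold enrichment 8.11, 21011 bp), Igkv17-134 (7.42, 21415 bp), Igkv8-28 (7.28, 3016 bp) and Igkv13-84 (3.99, 23950 bp). Between the peaks near Igkv13-84 and Igkv8-28 lay the longest stretch without CTCF, chr6:68914253-70096906, 1.18 Mb with 39 V genes, 22 of them of the Igkv4 family. On the autosomes 131 intervals were longer. For Rad21 the longest gap in the span was 2.04 Mb, from the site near Igkv10-95 to the end of the V genes, and it covered 73 genes.

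**Figure D5:**
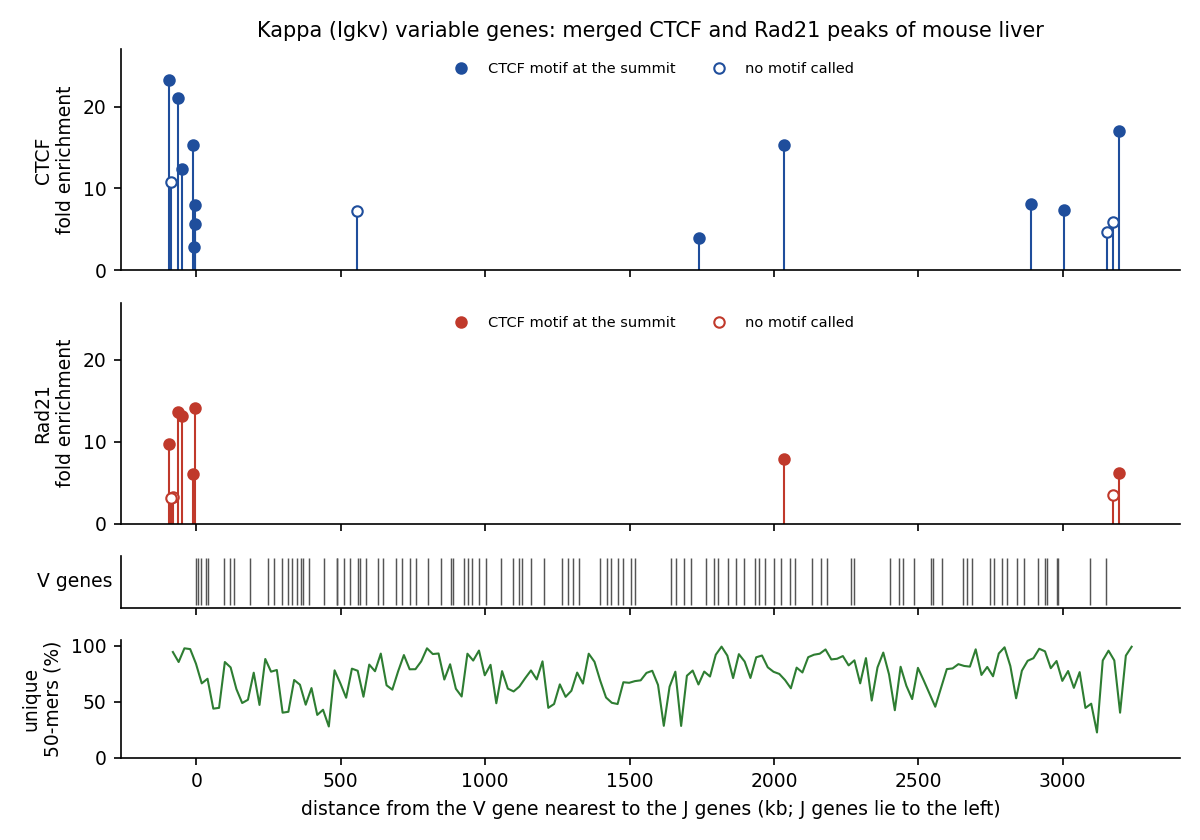
CTCF and Rad21 peaks along the kappa V genes, by distance in kb from Igkv3-1, the V gene nearest to the J genes, with fold enrichment on the vertical axes and filled circles where a CTCF motif was called at the summit. Vertical ticks are V genes and the lowest panel gives the percent of unique 50-mers in windows of 20 kb. Peaks gathered at the J-proximal end, and 5 CTCF peaks and 1 Rad21 peak lay between the first and the last V gene.

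Kappa peaks gathered at the edges instead. Of the 16 CTCF peaks, 8 lay within 100 kb beyond Igkv3-1, on the J side, and 3 before Igkv2-137, at the far end. Those 8 comprised 7 CAC sites. A Rad21 peak 818 bp wide (chr6:70659228-70660045, fold enrichment 14.1), 5057 bp beyond Igkv3-1, covered 2 CTCF peaks of 8.04 and 5.61. Next came a Lone CTCF site of 2.86 at 9096 bp, and a CAC site of 15.3 (Rad21 6.13) at 9995 bp. The region between the kappa V and J genes is known to hold the regulatory elements Cer and Sis, and whether these peaks lie over them was not tested.

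The motifs of these 4 CTCF peaks faced both ways. They are printed 5′ to 3′ on their own strand, all letters being the motif match, to show the change of direction between the first pair and the second.
Igkv3-1 side, chr6:70659459-70659478 (minus strand): GTATCAGCAGATGGCAGTGT
Igkv3-1 side, chr6:70659866-70659885 (minus strand): GTGTCAGCAGATGGCAGTGC
Igkv3-1 side, chr6:70663303-70663322 (plus strand): TGGCCACTTGAGGGAGCTAA
Igkv3-1 side, chr6:70664393-70664412 (plus strand): TGGCCAGCAGAGGCCCCTAG
The first 2, on the minus strand, pointed back to the V genes, and the last 2, on the plus strand, pointed towards the J genes.

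Further along, at 48290 bp from Igkv3-1, stood a CAC site of 12.4 (Rad21 13.1). An intron of Rpia, which encodes an enzyme of the pentose phosphate pathway, held a CAC site of 21.0 (Rad21 13.6), and an exon of Rpia one of 10.8 (Rad21 3.16). The strongest peak of the span, at 93628 bp, had 23.3 (Rad21 9.69) and a motif of 22.8 bits. A CNC site of fold enrichment 3.32 lay in an exon of Rpia, 79392 bp from Igkv3-1. At the far end, 44482 bp before Igkv2-137, was a CAC site of 17.0 (Rad21 6.14) with a motif pointing into the locus. A weaker CAC site of 5.91 (Rad21 3.48) lay 24286 bp before that gene and a Lone CTCF site of 4.67 lay 5745 bp before it. Thus 9 of the 10 kappa CAC sites lay outside the V genes. The share of CAC sites was 62.5% in the span (38.6 to 81.5%) and 1 of 5 between the V genes.

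The far edge of the heavy chain locus had a group of 4 CAC sites beyond Ighv1-85, the last V gene. The nearest, 27370 bp away (chr12:117266042-117266687), had the highest CTCF value of the span, 23.1, above 96.3% of autosomal CTCF peaks, with Rad21 at 3.82. Its best motif match scored 9.0 bits, below the threshold. Peaks at 47271 and 49230 bp, in exons annotated to Gm17626, had 8.17 and 8.42 (Rad21 4.71 and 7.3), and the last, at 70829 bp, had 5.77 (Rad21 3.98). Away from the V gene ends, the V genes held a CAC site 3040 bp from Ighv14-3 (5.22, Rad21 4.98) and Lone CTCF sites near Ighv14-2 (5.63, 18061 bp), Ighv3-3 (4.54, 2926 bp) and Ighv1-67 (3.63 at 8670 bp), and 1 of 3.55 at 9061 bp from Ighv1-69.

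On the J side, the interval between Ighv2-1 and the D genes held a pair of CAC sites, which entered the span only with the wider gene set. They lay 86 to 89 kb from Ighv2-1 and their motifs were on opposite strands, each pointing away from the other.
Ighv2-1 side, chr12:114723476-114723495 (minus strand): TCTCCACAAGAGGGCAGAAT
Ighv2-1 side, chr12:114726096-114726115 (plus strand): TAGCCACAAGGGGGAAGCAG
Printed 5′ to 3′ with all letters the motif match, the first pointed towards the D and J genes and had a CTCF fold enrichment of 10.6. The second pointed towards the V genes and had 20.4, with Rad21 at 17.9, above every Rad21 value in the 2 spans drawn by mm9 symbols. The interval between VH and D genes is known to hold the control region IGCR1, with a pair of CTCF sites, and the identity of this pair with it was not tested.

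For comparison, the rest of each locus was denser. From Ighv2-1 through the D, J and constant genes to 100 kb beyond them there were 13 CTCF peaks (32.3 per Mb) and 9 Rad21 peaks (22.3 per Mb). A group of 5 of these CTCF peaks, within chr12:114454126-114462782, had motifs on the plus strand, facing the V genes, and fold enrichments from 2.83 to 8.09. Other CTCF peaks of that interval, of 4.05, 7.64 and 2.59, had no motif called within 100 bp of the summit. The stretch from the last Igkv gene through the kappa J and constant genes to 100 kb beyond them, of 0.123 Mb, had 13 CTCF and 12 Rad21 peaks. Of these, 8 CTCF and 7 Rad21 peaks were already counted in the Igkv span with its extension, some of them in Rpia, an enzyme gene of the pentose phosphate pathway.

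Whole liver also holds B cells. Peaks are not expression, so genes of each lineage were looked up in the lists. Of 11 B lineage genes (Cd79a, Pax5, Rag1 and others) 3 had a Rad21 peak within 5 kb of the gene start and 1, Rag2, had a CNC site. Ebf1 and, among the hepatocyte genes, Trf matched more than 1 gene entry each and were left out. Of 11 hepatocyte genes (Alb, Apob, Ttr and others) 10 had a Rad21 peak and 8 a CNC site. Of all autosomal genes 51.4% had a Rad21 peak and 12.5% a CNC site within the same distance. The part that B cells have in the peaks on the V genes was not tested.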

How the data were processed

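The authors made 7 ChIP-seq libraries from liver nuclei (CD-1 females aged 8 weeks), 4 for CTCF and 3 for Rad21. According to their methods, uniquely mapped reads (Bowtie2, mm9) were kept, peaks were called with MACS2, and blacklisted regions and peaks of duplicate reads only were removed. Reads of the libraries of each antibody were pooled by the authors, and the deposited peaks are those of the pool. Because only uniquely mapped reads were kept, copies with identical sequence lose reads. The deposited lists give for each peak a fold enrichment over local background (a ratio), a −log10 q value, and a score that is derived from q. All were used as deposited.

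Overlaps, gaps and annotation (GENCODE of the same build; no peak ran past a chromosome end, 0 of all) were computed with Python 3.11.15, numpy 2.4.6, pandas 2.3.3 and pysam 0.24.0. A recombination signal was called from 29 bp before to 61 bp after the 3′ end, for a heptamer that starts with CAC, where at least 11 of 16 heptamer and nonamer positions matched CACAGTG and ACAAAAACC, with a spacer of 23 (heavy) or 12 (kappa), give or take 1 bp. Motif matches on both strands used the matrix described in the text, and a 50-mer was unique if neither it nor its complement recurred in mm9. Overlaps and motif steps were tested on simulated data. Wilson intervals are at the 95% level. A count of 0 allows a share of up to 3 of the total.

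No test was made. Named items were genes with a peak within 1 kb and the 10 strongest peaks of each factor per span. CNC sites and Lone CTCF sites (the 5 strongest where over 10), first and last V genes, and the longest gaps were also named. Up to 8 V gene sequences per locus were printed, with motif matches of peaks on the J side of each locus in addition. Members and lists were chosen with earlier results of these data known. Alternatives were stricter peak thresholds, the span without extension, other overlap, motif and distance rules, V segments only, and the RefSeq names, which were added after the data were seen. No column of a single library was left unused (0). 1 further gene of the B lineage list, beside those in the text, is not reported here.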

Additional observations from a re-analysis of the deposited data

How the results depend on the processing

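Of 53 alternative values, 39 stayed near the value reported (within 1.5 times for a count, within its interval for a share or median) and 14 did not. No paired analysis was possible because peaks were called on pooled reads, with no column per library, and for the same reason no library could be left out. Without the 100 kb on each side, Rad21 peaks in the Ighv span fell to 7 from 11, and the Igkv span had 5 CTCF peaks, 1 Rad21 peak and a CAC share of 20%. Stricter peak thresholds were applied to both lists. At a −log10 q of at least 10 the Ighv span had 5 Rad21 peaks and a CAC share of 20% (autosomes 71.4%). At a fold enrichment of at least 5 it had 3 Rad21 peaks and a share of 10.5% (autosomes 70.3%). With RefSeq names 14 Ighv genes instead of 3 had a CTCF peak within 1 kb and the median distance was 0 bp instead of 49230 bp. Within 5 kb there were 5 Ighv genes (17 with RefSeq names) and 1 Igkv gene (28.4% of short autosomal genes). The motif share was 39.1% in the Ighv span within 50 bp of the summit (autosomes 40.0%), and 100.0% in the Igkv span at the 5% rate (autosomes 62.5%). Of the 29 genes with the motif behind the 3′ end, 12 instead of 13 had a peak under either threshold. Limits: only peaks above the caller's threshold are known, read depth is not in the lists, only 74.5% (wider Ighv set) and 72.8% (Igkv) of 50-mers are unique, and all signals come from whole liver.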
